A study of Rattus norvegicus with 8 samples.

Results

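Neurexins, neuroligins and their partners are adhesion proteins of synapses, and 8 of their genes were followed here by name: Nrxn2, Nrxn3, Nlgn1, Nlgn2, Nlgn3, Nxph1, Nxph3 and Lrrtm3. Of the 8, 7 had a row under their symbol among the 30560 genes of the count matrix, and Nxph3 is not analysed here. The data are single-nucleus RNA counts from nodose ganglia, which hold the cell bodies of vagal sensory neurons, of Long Evans rats aged 8 weeks that had undergone no experiment.

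Ganglia came from 18 male and 18 female rats. Every pool holds ganglia of 6 animals from the same side, so a pool and not a rat is the replicate. Left and right ganglia of the same rats went into different pools, and the side tests treat those pools as independent. There are 12 pools, 3 for each combination of labelled sex (M or F) and side (L or R), named by these letters and a number, as in ML1 or FR3. Each pool gave 1738 to 4849 nuclei and 7139364 to 19456287 unique molecular identifiers (UMIs, counted RNA molecules), and no cell barcode was shared. Y-linked transcripts summed to 2.88 UMIs per 1000000 (CPM) in ML1, against 84.4 to 91.3 in the other male-labelled pools. In FL1 the sum was 88.6 CPM, where the female-labelled remainder held 2.73 to 3.95. The labels of these 2 pools were therefore contradicted, and results by labelled sex are given as labelled and, in brief, without them.

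Neurexins are presynaptic membrane proteins whose outer domains bind partners across the synaptic cleft. Neuroligins and the leucine-rich repeat protein Lrrtm3 are postsynaptic partners of neurexins, and neurexophilins such as Nxph1 are secreted glycoproteins that bind neurexins tightly. In sensory ganglia the somata are wrapped by satellite glia and form few synapses there, while the proteins made in the soma are carried to central and peripheral terminals.

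Nuclei were clustered without the members and without the related genes described later, and classes were named from marker genes. The classes compared were 23603 nodose-like neurons, 2627 jugular-like neurons (24 to 637 per pool), 5357 satellite glia, 2439 myelinating Schwann cells and 1087 vascular nuclei. The satellite glia markers did not separate the glial classes as a sum: their 9 measured genes summed to 3125 to 4508 CPM in satellite glia and 6553 to 9991 CPM in myelinating Schwann cells. Cadm2 made up most of the latter (6681 against 1387 CPM), whereas Apoe (1288 against 287 CPM), Kcnj10, Kcnj3 and Fabp7 were higher in satellite glia. The remaining measured markers of that list are not described here. The 10 myelinating Schwann cell markers summed to 10718 to 13438 CPM in that class and 1024 to 1654 CPM in satellite glia. Among the neuron subclusters used below, n11, n17 and n22 also held 3 or more markers of a non-neuronal cell type, though none of these among their 10 leading genes. In n22 there were 4 markers of sympathetic neurons or chromaffin-type cells as well, with Ddc and Gata3 among its leading genes, and its name as nodose-like is less certain. The small subcluster n24 held 3 jugular and 3 nodose markers, and its name as jugular-like is also less certain. Neuron RNA was also counted in the other classes. The summed level of 10 neuron markers was 6848 to 8376 CPM over the pools of satellite glia and 2305 to 4087 CPM in myelinating Schwann cells, against 8218 to 9846 CPM in nodose-like neurons, and none of the 10 was at 0. Taken marker by marker, the median was 71.6% of the neuron level in satellite glia, 28.1% in myelinating Schwann cells and 34.0% in vascular nuclei. Its part in the member levels of these classes was not tested in general. For satellite glia, each comparison was therefore also made with the cluster that held the least neuron marker RNA, g0, with 1489 nuclei and a summed level of 64.5% of the neurons'. The cluster g0 also held 5 markers of the fibroblast list and 3 of the non-myelinating Schwann cell list. Satellite clusters g3, g4 and g5 held 4, 3 and 5 fibroblast markers, with 2 non-myelinating Schwann cell markers each. The myelinating Schwann cell clusters g2, g7, g8 and g11 held 5 fibroblast markers each, with 4, 3, 4 and 4 non-myelinating Schwann cell markers. Summed fibroblast markers were 1935 to 2744 CPM over the pools of myelinating Schwann cells and 520 to 917 CPM in satellite glia.

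Nrxn2 and Nrxn3 were higher in neurons than in either glial class, whereas Nlgn1, Nlgn3 and Lrrtm3 were higher in both glial classes than in neurons. With edgeR's quasi-likelihood test and a threshold of 0.05 on the Benjamini-Hochberg adjusted p, all 7 members differed between neurons and satellite glia, 3 higher and 4 lower in neurons. There 72.8% of the 12413 genes tested passed (34.2% higher and 38.6% lower in neurons), so the number of members called is not a result about them. Against myelinating Schwann cells all 7 passed as well, 4 higher and 3 lower in neurons, where 71.6% of genes passed (37.3% higher, 34.3% lower). Between satellite glia and myelinating Schwann cells 4 of 7 passed, all higher in satellite glia, beside 65.6% of genes (32.5% higher, 33.1% lower). Between nodose-like and jugular-like neurons 5 of 7 passed, 3 higher and 2 lower in nodose-like neurons, beside 38.4% of genes (19.9% higher, 18.5% lower). The median log2 difference of the 7 members was -0.20 between neurons and satellite glia and 0.32 between neurons and myelinating Schwann cells, and that of all genes was -0.04 and 0.02. The share of all genes whose pools did not overlap between classes was not counted. Where a gene is said not to overlap, this is therefore a description and not a result particular to it.

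The scaling of the libraries moved these differences. Without trimmed-mean (TMM) normalization, log2 differences of neurons against satellite glia moved by 0.14 and those against myelinating Schwann cells by 0.16, towards lower values in neurons. The share of called genes that were higher in neurons than in satellite glia was 47.0% with this normalization and 34.7% without it. No member changed direction in these 2 comparisons without it.

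**Figure D1:**
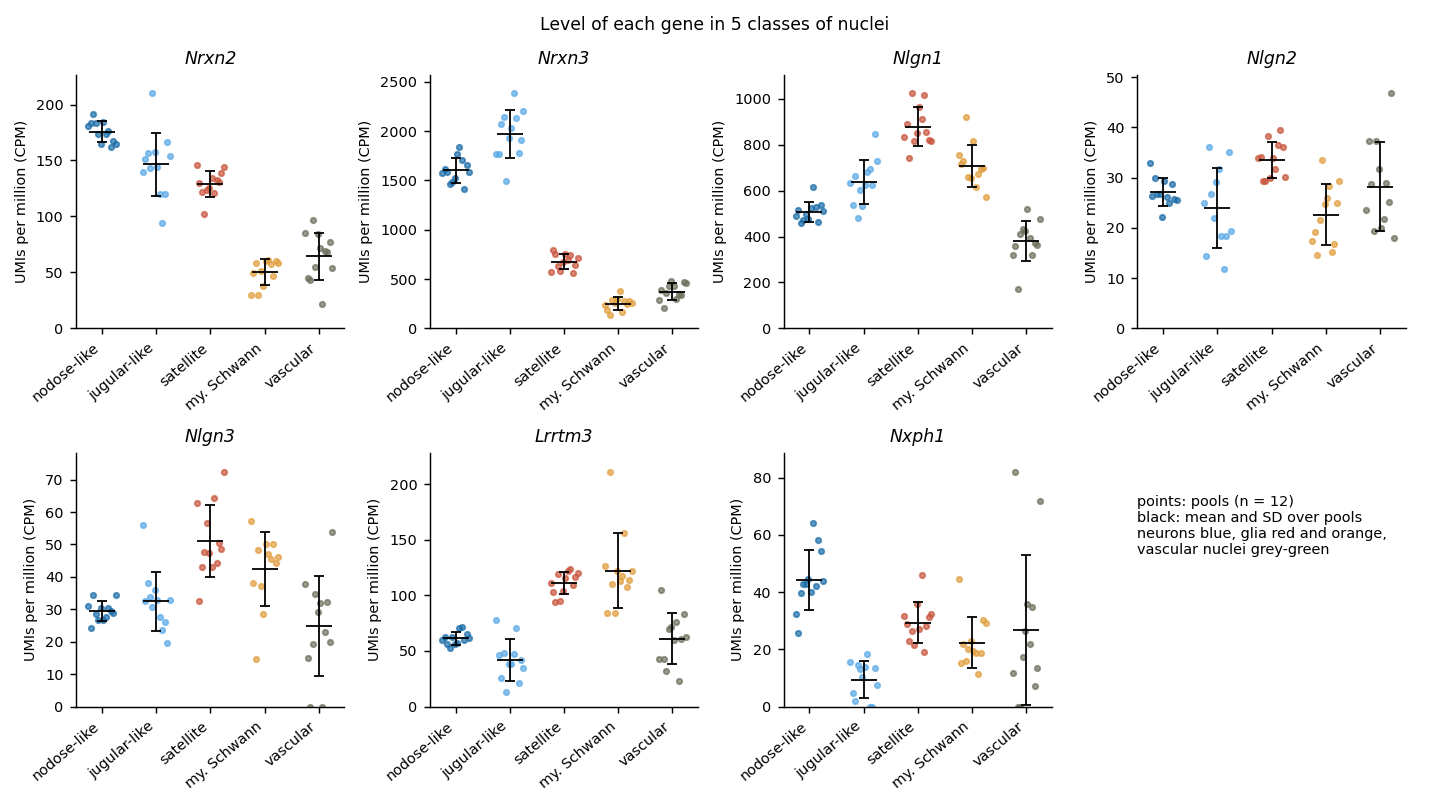
Each panel shows 1 gene, with its level in CPM on the vertical axis and 5 classes of nuclei on the horizontal axis. Points are the 12 pools and black marks the mean and SD: Nrxn3 pools of both neuron classes lie above all glial and vascular pools, while all satellite glia pools lie above all nodose-like pools for Nlgn1 and Lrrtm3.

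Nrxn3 encodes a presynaptic neurexin. Its level in the 12 pools of neurons was 1430 CPM at the lowest, 1627 at the median and 1904 at the highest. In satellite glia the values were 561, 681 and 798 CPM, and in myelinating Schwann cells they were 131, 261 and 380 CPM. The pools of the 3 classes did not overlap. The log2 difference of neurons against satellite glia was 1.41 (SE 0.04, edgeR adjusted p = 3.12e-25), a 2.67-fold higher level, and against myelinating Schwann cells it was 2.81 (SE 0.08, edgeR adjusted p = 3.03e-36), a 7.03-fold higher level. With g0 alone as satellite glia the difference was larger, at 2.25. Satellite glia exceeded myelinating Schwann cells by 1.28 (SE 0.07), a difference that was 0.52 with g0 alone. Nrxn3 was the member whose order over the 5 classes was resolved throughout: jugular-like neurons (1968 ± 243 CPM, SD, n = 12 pools), nodose-like neurons (1602 ± 125), satellite glia (676 ± 79.2), vascular nuclei (373 ± 84.9) and myelinating Schwann cells (251 ± 66.0). Each of the 4 neighbouring pairs differed in the same direction in 12 of 12 pools (exact sign-flip permutation test over pools on log2(CPM + 5), two-sided, adjusted p = 0.00137 for each). The raw p of 0.000488 is the smallest that 12 pools can give. This order was not tested at other clustering resolutions. At the coarser resolution of 0.5 the edgeR difference of nodose-like against jugular-like neurons was -0.01 (edgeR adjusted p = 0.933).

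Among 19 neuron subclusters with at least 20 nuclei in at least 8 pools, mean Nrxn3 differed 9.62-fold between the highest and the lowest. The highest was n9, led by Spon1, Tmem233 and Tacr1, at 2782 ± 239 CPM (lowest pool 2341, median 2793, highest 3093). It was followed by n5, led by Edn3 and Kcng1, at 2711 ± 220 CPM, and n2, led by Gdpd4 and Itgae, at 2652 ± 142 CPM, and these 3 could not be ordered beyond their spread. All 3 are nodose-like, and their means lay above those of n14 (2193 CPM) and n8 (2018 CPM), the jugular-like ones among the 19. The lowest was n4, led by Xylt1 and Sctr and including Cckar, the cholecystokinin receptor gene, at 289 ± 69.2 CPM (215, 262 and 457 at the lowest, median and highest pool). The subclusters n0, led by Fhip1a, Col27a1 and Kirrel3, at 369 ± 42.6 CPM and n22, led by Ddc and Dcc, at 371 ± 96.2 CPM were similar. These 3 means and that of n12 (603 CPM), all of nodose-like subclusters, lay under the satellite glia mean of 676 CPM, a description with no test. In g0 alone, with pools summed, Nrxn3 was 386 CPM, under the mean of n12 and near those of n0 and n22. Of the 18 neighbouring pairs in the Nrxn3 order, 2 passed: n10 over n7, in 11 of 12 pools, and n17 over n12, in 11 of 11 pools (exact sign-flip permutation test, adjusted p = 0.0308 and 0.0246).

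Nrxn2, also a presynaptic neurexin, was narrower in range. Neurons held 160 CPM at the lowest pool, 175 at the median and 190 at the highest, satellite glia held 102, 130 and 146, and myelinating Schwann cells held 29.5, 54.3 and 61.2. No pool of 1 class fell within the range of another. Neurons were 1.46-fold above satellite glia (log2 0.54, SE 0.04, edgeR adjusted p = 8.09e-13) and 3.88-fold above myelinating Schwann cells (log2 1.96, SE 0.09, edgeR adjusted p = 5.23e-27). With g0 alone the first difference was 1.15 on the log2 scale. Satellite glia stood 1.33 above myelinating Schwann cells on the log2 scale (SE 0.09, edgeR adjusted p = 1.80e-20), and 0.82 with g0 alone. With pools summed, Nrxn2 was 75.4% of the neuron level in satellite glia and 28.6% in myelinating Schwann cells, beside medians of 71.6% and 28.1% for the neuron markers; the part of neuron RNA in this difference was not tested.

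Within neurons, Nrxn2 was highest in n12, led by Spp1, Kcna1 and Nefh (a neurofilament gene of large myelinated afferents), at 308 ± 35.4 CPM, with all pools between 268 and 382. The next, n3, led by Cysltr2 and Cyp26b1, held 237 ± 11.3 CPM and was lower in 12 of 12 pools (exact sign-flip permutation test, adjusted p = 0.0205), the only neighbouring pair of 18 that passed for Nrxn2. The lowest level was 96.8 ± 23.0 CPM in n22 (n = 8 pools), a 3.18-fold difference from the highest. The subcluster highest in Nrxn2 was among the 4 lowest in Nrxn3, at 603 ± 170 CPM. Across 23 subclusters with pools summed, the Pearson r of log2(CPM + 5) between Nrxn2 and Nrxn3 was 0.20, a description over subclusters that share libraries. Nrxn2 was also 0.20 higher on the log2 scale in nodose-like than in jugular-like neurons (SE 0.06, edgeR adjusted p = 0.00701), a call that ended in the right pools alone and at the finer clustering resolution of 2. Nrxn3 was the reverse, 0.33 lower in nodose-like neurons (SE 0.04, edgeR adjusted p = 6.20e-08), which shrank to -0.01 at the coarser resolution of 0.5 (edgeR adjusted p = 0.933).

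**Figure D2:**
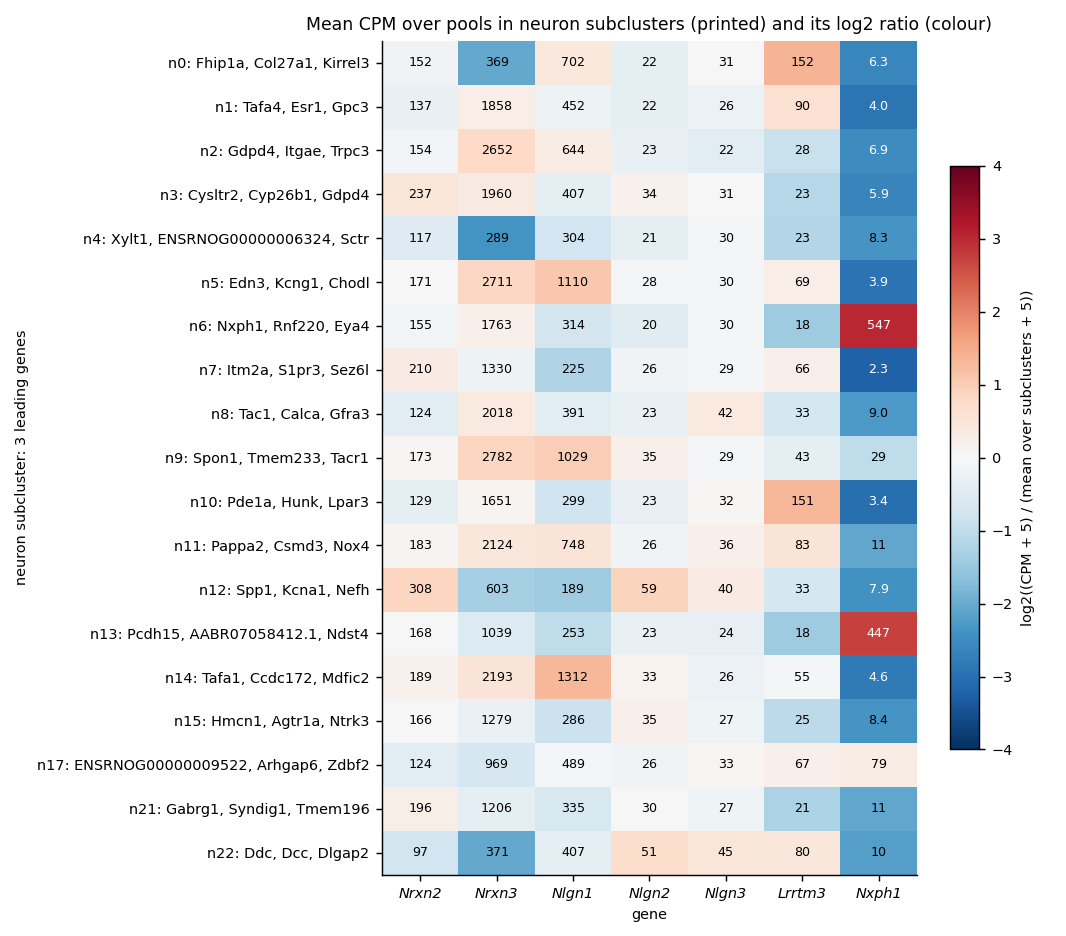
Rows are 19 neuron subclusters with their 3 leading genes and columns are the 7 genes; the printed number is the mean over pools in CPM and the colour its log2 ratio to the gene's mean over subclusters. Nxph1 stands out in n6 and n13, Lrrtm3 in n0 and n10, Nrxn3 is low in n0, n4 and n22, and n12 has the highest Nrxn2 and Nlgn2 with the lowest Nlgn1.

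Nlgn1 encodes a neuroligin best known at excitatory synapses. It was lower in neurons, with pools at 468, 510 and 623 CPM (lowest, median and highest), than in satellite glia, with 742, 854 and 1024 CPM. The ranges did not overlap, and the log2 difference was -0.63 (SE 0.04, edgeR adjusted p = 1.09e-14), that is 1.54-fold higher in glia. The contrast widened to -1.02 with g0, where Nlgn1 reached 1216 ± 136 CPM. The other satellite clusters held 651 ± 69.8 to 898 ± 49.5 CPM (g5 and g4 at the ends, g1 and g3 between), beside summed neuron markers at 78.4% to 107.5% of the neuron level. Myelinating Schwann cells, at 574, 697 and 921 CPM, overlapped neurons but were higher on average (log2 -0.30 for neurons against them, SE 0.07, edgeR adjusted p = 5.81e-05). This call ended in the left pools alone and without the filter on low counts. Satellite glia exceeded myelinating Schwann cells by 0.25 (SE 0.05, edgeR adjusted p = 1.28e-05), and by 0.73 with g0.

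Neuron subclusters differed 6.93-fold in mean Nlgn1. The jugular-like subcluster n14, led by Tafa1 and Ccdc172, was highest with 1312 ± 115 CPM in 9 pools (1170, 1307 and 1519), above the mean of g0. It was followed by n5 at 1110 ± 85.6 CPM and n9 at 1029 ± 87.8 CPM. The step from n9 to n11, led by Pappa2 and Csmd3, at 748 CPM, held in 12 of 12 pools (exact sign-flip permutation test, adjusted p = 0.0205), and that from n2 to n17 in 10 of 11 pools (adjusted p = 0.0352). The lowest level, 189 ± 60.2 CPM, was in n12. Summed over nuclei, jugular-like neurons were higher than nodose-like ones, with log2 -0.36 for nodose-like against jugular-like (SE 0.05, edgeR adjusted p = 1.85e-07). Of the 5 jugular-like subclusters with 20 nuclei in a pool only n14 lay above the nodose-like mean of 507 CPM, whereas n8 held 391, n24 381, n23 156 and n20 127 CPM. The share of nuclei with a Nlgn1 UMI ran the other way, 53.7% in jugular-like against 66.1% in nodose-like neurons, or 34.1% against 37.1% after thinning to 1000 UMIs. The subclusters n5 and n9 were among the 3 highest for both Nlgn1 and Nrxn3, and the Pearson r between these 2 genes across the 23 subclusters was 0.37.

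Nlgn3, a neuroligin found at excitatory and inhibitory synapses and also made by glia, had few UMIs. Neuron pools held 25.8, 29.1 and 34.5 CPM and satellite glia 32.7, 48.2 and 72.5 CPM, with an overlap at the low end of the glia. The log2 difference was -0.66 (SE 0.07, edgeR adjusted p = 1.01e-10), or -0.96 with g0. Against myelinating Schwann cells (14.6, 45.9 and 57.2 CPM) it was -0.41 (SE 0.11, edgeR adjusted p = 0.00123), a call lost in the left pools alone and without the low-count filter. The glial classes did not differ past the threshold (log2 0.20 for satellite glia over myelinating Schwann cells, SE 0.11, edgeR adjusted p = 0.115), although with g0 the difference was 0.58 and passed (edgeR adjusted p = 6.90e-05), as it did under 5 of the other 22 alternatives: without FL2 (0.26, edgeR adjusted p = 0.0446), without ML1 and FL1, without TMM, without the highest doublet scores and at resolution 2 (0.47). Nlgn3 did not differ past the threshold between nodose-like and jugular-like neurons (log2 -0.20, SE 0.10, edgeR adjusted p = 0.136), except at resolution 2 and without MR2 (-0.26, edgeR adjusted p = 0.0419). No neighbouring pair passed in the Nlgn3 order, either across the 5 classes or across the 19 subclusters, where means ran from 21.9 CPM in n2 to 45.5 CPM in n22.

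Nlgn2 encodes the neuroligin of inhibitory synapses. Its levels were the closest between classes, at 22.9, 26.7 and 32.6 CPM in pools of neurons, 29.2, 33.9 and 39.5 CPM in satellite glia and 14.6, 23.1 and 33.4 CPM in myelinating Schwann cells. All 3 ranges overlapped. Neurons were 0.20 lower on the log2 scale than satellite glia (SE 0.07, edgeR adjusted p = 0.00868), but with DESeq2, without the low-count filter, in the left pools alone, at resolution 0.5 or with g0 alone the adjusted p missed the threshold, reaching 0.446. The difference from myelinating Schwann cells (0.32 higher in neurons, SE 0.14, edgeR adjusted p = 0.0296) missed it under 6 of 22 alternatives, among them the omission of MR1 or of FL1. Satellite glia exceeded myelinating Schwann cells by 0.47 (SE 0.14, edgeR adjusted p = 0.00264), a call lost in the right pools alone (edgeR adjusted p = 0.0593). In neurons the highest mean, 59.1 ± 26.2 CPM, was again in n12, with pools from 31.5 to 124 CPM, and the lowest was 19.7 ± 8.16 CPM in n6. None of the 18 neighbouring pairs passed for Nlgn2. Across the subclusters Nlgn2 was closest among the members to Nlgn3 (Pearson r = 0.55, 23 subclusters) and to Nrxn2 (0.41); counts per subcluster were low for both neuroligins.

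Lrrtm3, a postsynaptic leucine-rich repeat protein that binds neurexins, was higher in glia. Neuron pools held 52.6, 59.0 and 71.7 CPM, satellite glia 94.0, 114 and 124 CPM, and myelinating Schwann cells 84.0, 116 and 211 CPM. Neither glial class overlapped neurons. Neurons were lower than satellite glia by 0.77 on the log2 scale, 1.70-fold (SE 0.05, edgeR adjusted p = 5.01e-16), and lower than myelinating Schwann cells by 0.82, 1.76-fold (SE 0.09, edgeR adjusted p = 1.97e-12). The cluster g0 held 169 ± 23.4 CPM, and with it the first difference was -1.27. The glial classes did not differ past the threshold (log2 -0.11 for satellite glia over myelinating Schwann cells, SE 0.08, edgeR adjusted p = 0.192), but at resolution 0.5 the difference was -0.23 and passed (edgeR adjusted p = 0.0107), and with g0 the direction turned, to 0.48 (edgeR adjusted p = 7.37e-07).

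In 2 neuron subclusters mean Lrrtm3 lay above the means of both glial classes, though under that of g0 alone. In n0 it was 152 ± 23.1 CPM (108, 151 and 205) and in n10, led by Pde1a, Hunk and Lpar3, 151 ± 38.8 CPM (109, 137 and 219). The next, n1, led by Tafa4 and Esr1, held 89.7 ± 14.2 CPM and lay below n10 in 12 of 12 pools (exact sign-flip permutation test, adjusted p = 0.0205). The lowest levels were 17.9 ± 8.62 CPM in n6 and 18.0 ± 11.2 CPM in n13, an 8.49-fold difference from the highest. In n0 high Lrrtm3 stood beside low Nrxn3, whereas n10, with the same Lrrtm3, held 1651 CPM of Nrxn3. Nodose-like neurons were 0.54 above jugular-like ones on the log2 scale (SE 0.10, edgeR adjusted p = 1.67e-05), a difference of 0.25 at resolution 0.5 (edgeR adjusted p = 0.0508). Means of nodose-like subclusters lay on both sides of the jugular-like mean of 41.9 CPM, from n6 to n0.

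Over the 5 classes, 12 of the 28 neighbouring pairs in the orders of the 7 members passed (exact sign-flip permutation test, adjusted over the 28). For Nrxn2 the order was nodose-like neurons, jugular-like neurons, satellite glia, vascular nuclei (64.2 CPM) and myelinating Schwann cells; jugular-like neurons and satellite glia were not resolved (adjusted p = 0.180, exact permutation test), and nor was the last pair (0.280). For Nlgn1 satellite glia led, followed by myelinating Schwann cells, jugular-like neurons (638 ± 97.1 CPM), nodose-like neurons (507 ± 42.8 CPM) and vascular nuclei (380 ± 88.7 CPM), and of these steps only that from myelinating Schwann cells to jugular-like neurons was not resolved (exact permutation test, adjusted p = 0.205). For Lrrtm3 the step from satellite glia down to nodose-like neurons passed and the other 3 did not. For Nxph1 nodose-like neurons stood above satellite glia in 11 of 12 pools and myelinating Schwann cells above jugular-like neurons in 12 of 12, while satellite glia, vascular nuclei (26.9 CPM) and myelinating Schwann cells were not resolved. For Nlgn2 and Nlgn3 0 of 4 pairs passed.

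**Figure D3:**
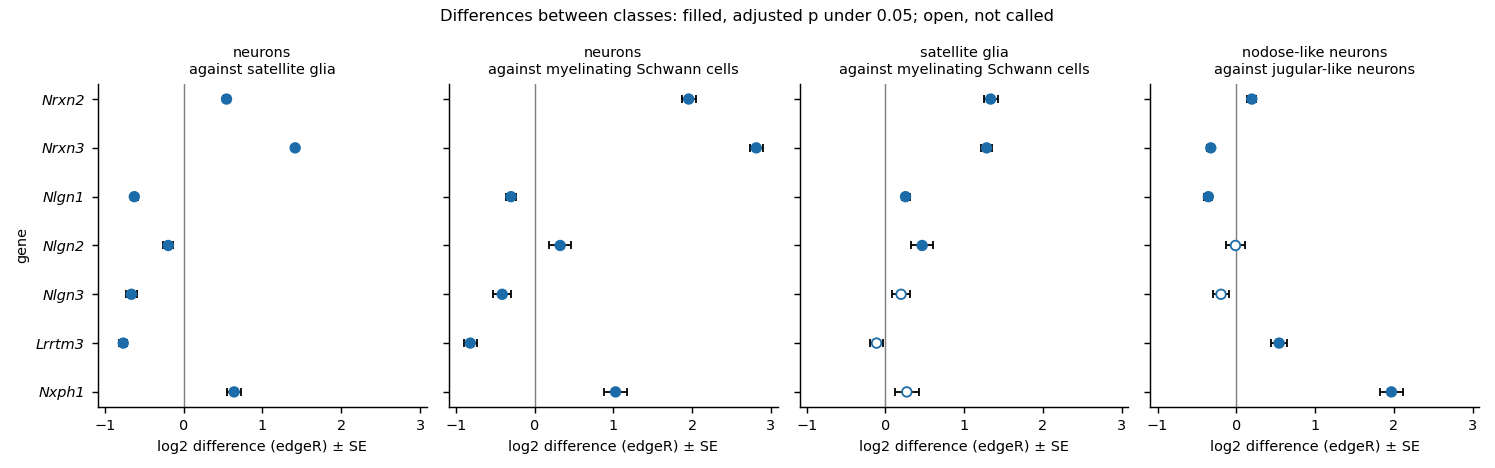
Horizontal axes give the log2 difference of the first over the second class from edgeR's fit over 12 pools, for 4 comparisons and 7 genes. Bars are the SE derived from edgeR's F statistic. Nrxn2 and Nrxn3 lie right of 0 in the first 3 panels, while Nlgn1, Nlgn3 and Lrrtm3 lie left of 0 in the first 2; open points did not pass the threshold.

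Nxph1, the secreted neurexin ligand, was the most unevenly spread member among neurons. The promoter windows of Nxph1 and Lrrtm3 are shown because the subclusters highest in Nxph1 were the lowest in Lrrtm3, and because the RefSeq table places their start at the first base of the gene. Each is the 250 bases before the start, plus strand of build GRCr8, credited to RefSeq, with CG pairs in capitals.
Nxph1, chr4:37964075-37964324: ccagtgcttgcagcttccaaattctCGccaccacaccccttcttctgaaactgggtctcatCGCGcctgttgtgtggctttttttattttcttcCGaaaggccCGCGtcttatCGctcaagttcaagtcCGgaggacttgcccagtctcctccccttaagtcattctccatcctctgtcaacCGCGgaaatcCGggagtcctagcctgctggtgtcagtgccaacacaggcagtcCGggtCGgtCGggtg
Lrrtm3, chr20:24514054-24514303: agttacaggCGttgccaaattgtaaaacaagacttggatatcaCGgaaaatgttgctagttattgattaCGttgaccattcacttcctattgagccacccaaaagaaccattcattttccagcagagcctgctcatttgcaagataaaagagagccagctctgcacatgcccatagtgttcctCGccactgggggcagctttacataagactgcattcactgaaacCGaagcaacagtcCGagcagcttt
The Nxph1 window was 55.6% G or C with 14 CG pairs, and the Lrrtm3 window 44.8% with 6 CG pairs, against medians of 51.2% and 5 over 33469 windows of the same length. Neither held the TATA box letters TATAAA on either strand, which 12.9% of those windows hold. These are descriptions of the letters, and no measurement of binding or start site use was made.

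Of all Nxph1 UMIs in neurons, 79.8% lay in the subclusters n6 and n13, which hold 7.87% of neuron nuclei. For the other members the share of UMIs in these subclusters was between 1.85% and 6.18%. The subcluster n6, clustered without Nxph1 but led by it together with Rnf220, Eya4, Slit2 and Kcnk2, held 547 ± 109 CPM over 12 pools (368, 568 and 708 at the lowest, median and highest). In n13, led by Pcdh15 and Ndst4, the level was 447 ± 137 CPM (209, 425 and 672). The order of n6 and n13 was not resolved. By side, n6 held 505 ± 123 CPM on the left and 589 ± 83.4 CPM on the right (n = 6 pools each). The third, n17, held 78.6 ± 66.9 CPM with pools from 0 to 207, below n13 in 11 of 11 pools (exact sign-flip permutation test, adjusted p = 0.0246). Its ML pools held 156 to 207 CPM and its remaining pools 0 to 73.7 CPM. Both n6 and n13 were also among the lowest in Lrrtm3, and the Pearson r between Nxph1 and Lrrtm3 across the 23 subclusters was -0.32, the most negative of the 21 pairs of members.

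The remaining 16 of these 19 subclusters held little Nxph1, with means from 2.28 CPM in n7 to 29.2 CPM in n9. In n7, 20 UMIs were counted in 1216 nuclei. After each nucleus was thinned to 1000 UMIs, 36.4% of n6 nuclei (exact 95% binomial interval 33.7% to 39.1%) and 21.9% of n13 nuclei (19.0% to 25.1%) held a Nxph1 UMI, against 58.8% and 35.9% unthinned. In satellite glia the thinned share was 2.16% (1.77% to 2.60%) and in n7 it was 0.164% (0.0199% to 0.593%). Shallower nuclei were left out (74 of 1317 in n6, 18 of 747 in n13, 401 of 5357 in satellite glia, 0 in n7). Median depths were 2418, 3377, 2173 and 6989 UMIs per nucleus for n6, n13, satellite glia and n7. The intervals cover counting error only. Over 12 pools the thinned share (mean ± SD) was 36.1 ± 7.79% in n6 and 21.1 ± 5.26% in n13.

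**Figure D4:**
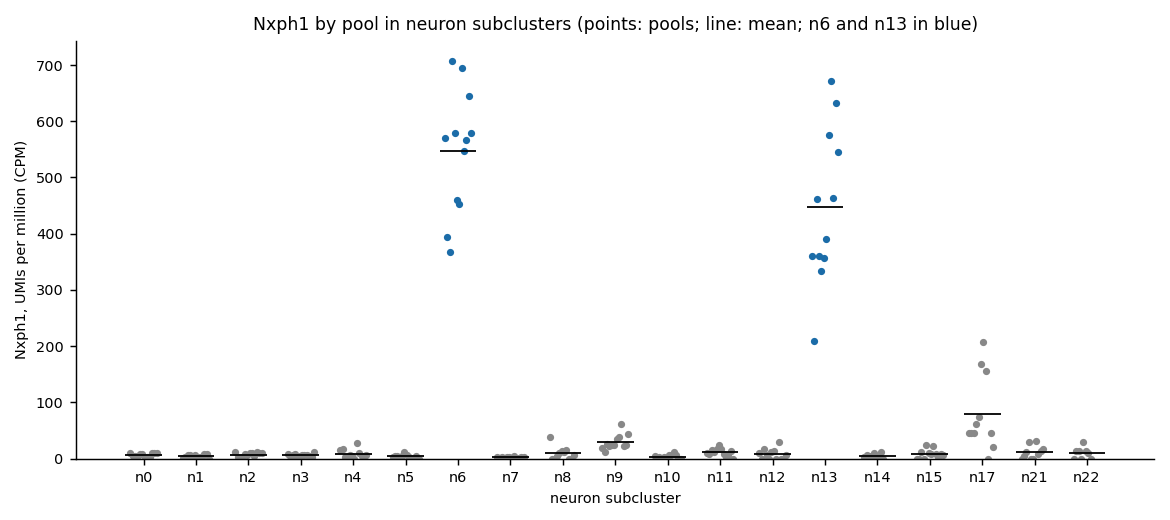
Each point is the Nxph1 level of 1 pool in CPM in 1 of 19 neuron subclusters, and lines are means over pools. All pools of n6 and n13 lie between 209 and 708, and the means of the other subclusters lie at or under 78.6.

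In nodose-like neurons as a whole Nxph1 pools held 25.6, 42.9 and 64.1 CPM, against 0, 11.7 and 18.4 CPM in jugular-like neurons, with no overlap. The log2 difference was 1.97 (SE 0.15, edgeR adjusted p = 1.92e-14), 3.91-fold. The 21539 nodose-like nuclei outside n6 and n13 held 8.57 ± 2.28 CPM, beside 9.46 ± 6.40 CPM in jugular-like neurons. Neurons exceeded satellite glia by 0.64 (SE 0.09, edgeR adjusted p = 7.23e-08; 41.2 ± 10.1 against 29.3 ± 7.14 CPM), or by 1.19 with g0, but at resolution 0.5 the difference was -0.08 (edgeR adjusted p = 0.533). They exceeded myelinating Schwann cells by 1.03 (SE 0.14, edgeR adjusted p = 4.56e-09; 22.4 ± 8.85 CPM). Nxph1 in satellite glia, with pools summed, was 72.2% of the neuron level, next to the 71.6% median of the neuron markers there; in myelinating Schwann cells it was 55.4%, next to 28.1%. Between the 2 glial classes the log2 difference was 0.27 (SE 0.15, edgeR adjusted p = 0.106), which did not pass. It passed without FL1, the pool highest in myelinating Schwann cells (0.39, edgeR adjusted p = 0.0265), without ML1 and FL1 (0.38, edgeR adjusted p = 0.0419), at resolution 2 (0.72, edgeR adjusted p = 0.000346) and at resolution 0.5 (1.32, edgeR adjusted p = 1.43e-12).

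Neither side nor labelled sex gave a called difference for any member in neurons, satellite glia or myelinating Schwann cells, each taken as a whole. Side was not tested within neuron subclusters, where some means lay apart in either direction. The gaps given here were picked for their size (n = 6 pools per side). Nrxn2 in n9 averaged 207 ± 16.3 CPM in left pools against 139 ± 30.8 in right ones. Nlgn1 in n1 averaged 506 ± 39.1 CPM in left pools against 399 ± 29.2 in right ones. In n12 Nlgn1 was instead lower in left pools, at 144 ± 28.6 against 235 ± 46.6 CPM. With edgeR, 0 of 7 members passed for side in neurons, beside 0.114% of genes (16 of 14077), in satellite glia, beside 0% (0 of 11036), and in myelinating Schwann cells, beside 0.0550% (4 of 7269). At an unadjusted p under 0.05 the numbers of members were 1, 1 and 0, and DESeq2 also called 0 members in each class. For labelled sex 0 of 7 passed, beside 0.0355% of genes in neurons, 0.127% in satellite glia and 0.0825% in myelinating Schwann cells. Unadjusted p was under 0.05 for 3, 1 and 1 members, and DESeq2 again called 0. The interaction of side and labelled sex in neurons called 0 of 7 members, with 0 at an unadjusted p under 0.05, and 0% of genes; 577 genes were under 0.05 unadjusted and DESeq2 called 0. Without ML1 and FL1, edgeR called 0 of 7 members for labelled sex in neurons and in satellite glia, 0 of the 5 then tested in myelinating Schwann cells, and 0 of 7 for the interaction, beside 34, 42, 25 and 0 genes in all.

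The member nearest to a side difference in neurons was Nrxn3. Left pools held 1585, 1682 and 1904 CPM and right pools 1430, 1537 and 1682, overlapping. The log2 difference of right against left was -0.15 (SE 0.05, edgeR adjusted p = 0.562). Nxph1 was 37.5 ± 12.3 CPM on the left and 44.9 ± 6.26 CPM on the right (n = 6 pools each; log2 0.27, SE 0.13, edgeR adjusted p = 0.809). With an SE of 0.04 to 0.13 for the members in neurons, small differences were not detectable with these pools.

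By labelled sex, Nlgn1 in neurons was 468, 488 and 520 CPM in female-labelled and 471, 542 and 623 CPM in male-labelled pools, with overlap. The log2 difference of female over male was -0.18 (SE 0.05, edgeR adjusted p = 0.118), and without ML1 and FL1 it was -0.18 (edgeR adjusted p = 0.188). Nrxn3 differed by -0.14 (SE 0.05, edgeR adjusted p = 0.163), or -0.12 without those pools (edgeR adjusted p = 0.311). Nxph1 differed by -0.37 (SE 0.13, edgeR adjusted p = 0.155; 36.0 ± 7.92 against 46.4 ± 9.73 CPM, n = 6 pools each), or -0.42 without those pools (edgeR adjusted p = 0.170). Without MR1 there were 614 genes called in all, and Nlgn1 and Nrxn3 passed (edgeR adjusted p = 0.0214 for each), and without the low-count filter Nxph1 passed (edgeR adjusted p = 0.0396), so these calls turned on 1 pool or on the genes tested.

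**Figure D5:**
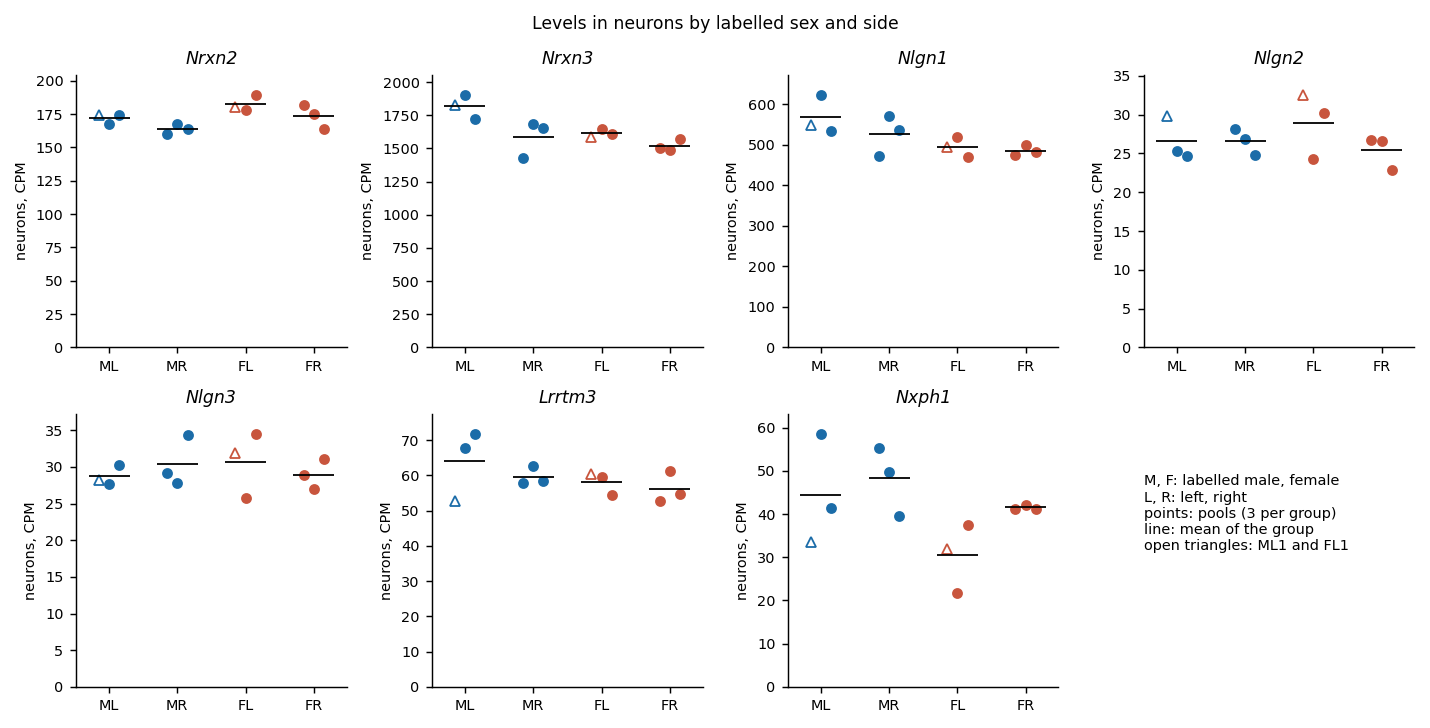
Levels in neurons in CPM for the 3 pools of each combination of labelled sex (M, F) and side (L, R), 1 panel per gene, with lines at group means. Open triangles are ML1 and FL1, whose Y-linked transcripts contradicted their labels; the left and right pools overlap in every panel, as do the male-labelled and female-labelled pools.

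Other genes of the pathway were taken from lists of neurexin partners (24 of 27 genes had a row), of intracellular scaffold proteins (16 of 16) and of LAR-type receptor phosphatases with their postsynaptic ligands (19 of 20). Of all genes tested, 72.8%, 71.6%, 65.6% and 38.4% passed in the 4 comparisons of classes, in the order given below. The counts of list genes called stand beside these shares and the shares by direction given above. In neurons against satellite glia, 12 of 18 tested partners were higher and 6 lower (median log2 0.66, all genes -0.04), 10 of 15 scaffolds higher and 4 lower (median 0.44), and 10 of 17 of the phosphatase list higher and 6 lower (median 0.41). The largest rises were of Tafa4, a secreted peptide of the TAFA family (log2 1.81, 186 against 59.9 CPM), Mdga2, a membrane-anchored protein that binds neuroligins (1.25, 991 against 461 CPM), and Lrfn2, a synaptic adhesion protein (1.17, 53.4 against 26.6 CPM). The largest falls were of Slitrk2, a ligand of LAR-type phosphatases (-3.41, 10.2 against 123 CPM), the scaffold gene Shank2 (-2.75, 152 against 1125 CPM) and Dag1, which encodes dystroglycan, a neurexin-binding matrix receptor (-1.90, 91.5 against 373 CPM). None of these 6 overlapped between the classes, but they were chosen for the size of their differences.

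Against myelinating Schwann cells, 13 of 17 partners were higher in neurons and 3 lower (median 1.94, all genes 0.02), 13 of 15 scaffolds higher and 2 lower (median 1.04), and 10 of 16 of the phosphatase list higher and 4 lower (median 0.71). Tafa4 (log2 2.93, 186 against 26.5 CPM) and Lrfn5 (2.51, 657 against 123 CPM) were among the largest rises. Lrrtm4, a relative of Lrrtm3, fell most (-3.53, 136 against 1739 CPM), followed by Slitrk2 (-2.97) and Dag1 (-2.44). Lrrtm4 was also the largest fall between satellite glia and myelinating Schwann cells (-2.91, 236 against 1739 CPM), where Magi2 (-0.69) and Ptprf (-0.69) came next, and Shank2 (2.18) and Mdga1 (1.51) were among the largest rises. In that comparison 13 of 15 partners were higher in satellite glia and 2 lower (median 0.98, all genes -0.02), 10 of 15 scaffolds higher and 3 lower (median 0.53), and 9 of 13 of the phosphatase list higher and 2 lower (median 0.63). Lrrtm3 and Lrrtm4 thus differed in their glial pattern: Lrrtm3 was at 111 and 122 CPM in satellite glia and myelinating Schwann cells.

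Between nodose-like and jugular-like neurons, 10 of 18 partners were higher in nodose-like neurons and 4 lower (median 0.38, all genes 0.02), 8 of 15 scaffolds higher and 4 lower (median 0.20), and 6 of 16 of the phosphatase list higher and 5 lower (median -0.08). C1ql3, a secreted complement-like protein, rose most (log2 2.33, 48.2 against 6.65 CPM), followed by Mdga1 (2.17, 98.2 against 19.9 CPM) and Slitrk5 (1.36, 71.7 against 24.8 CPM). Tafa1 fell most (-5.43, 10.8 against 460 CPM), followed by Tafa3 (-2.66, 3.14 against 19.5 CPM, with overlapping pools) and Lin7a (-1.56, 41.7 against 117 CPM). All list genes named in these 4 comparisons had an edgeR adjusted p at or under 8.16e-15. For side, labelled sex and their interaction, 0 genes of any list passed in any class with edgeR.

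Genes whose levels across the 23 subclusters were most like those of a member were listed by Pearson r of log2(CPM + 5) among 8953 genes, as a description. For Nxph1 they were AABR07058412.1 (0.92), Rnf220 (0.86) and Actn2 (0.85), and for Lrrtm3 they were Lrrc4c (0.82), Sh3d19 (0.77) and Fmnl3 (0.75). For Nrxn2 they were Wars1 (0.88), ENSRNOG00000065020 (0.87) and Lynx1 (0.86), and for Nrxn3 Slc9a9 (0.78), Cntnap5c (0.75) and Luzp2 (0.70). For Nlgn1 they were Acox3 (0.74), Fgf18 (0.73) and ENSRNOG00000064399 (0.73). For Nlgn2 the closest were Stip1 (0.82), Fam171b (0.81) and Edf1 (0.81), and for Nlgn3 Hnrnpu (0.84), Zc3h7b (0.80) and Tns2 (0.80). Rnf220 is also a leading gene of n6 and AABR07058412.1 of n13.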

How the data were processed

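The authors deposited raw UMI counts per nucleus and gene, with a table of each nucleus's pool. Per the labels, nuclei were barcoded with Evercode version 2 kits, divided into 8 sublibraries and sequenced on a NextSeq 2000. Per the submitters' processing notes the build was mRatBN7.2 and the tools R 4.3.2 and Seurat 4.1.3; the aligner is not given in the sources used here. Sums of the deposited counts equalled the deposited UMI total in all 36741 nuclei. Nuclei needed 300 genes or more, with mitochondrial counts of 5% or less. Scrublet called 2 doublets (0.00544%), so it hardly worked, and 36738 nuclei remained.

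Clustering used scanpy 1.11.5 (3000 variable genes, 30 components, 20 neighbours, Leiden resolution 1), repeated within neurons and other nuclei on Pearson residuals. Members, list genes, mitochondrial and Y-linked genes were left out. Classes need at least 3 markers at 2-fold (1.5-fold for neurons); these naming rules were settled after clusters were seen. Neuron clusters with 3 or more markers of a non-neuronal cell type, at least 1 of them among the 10 leading genes, were set aside (1201 nuclei). Counts were summed per pool and class and tested with edgeR 4.0.16 in R 4.3.3 (quasi-likelihood test, TMM, filterByExpr, Benjamini-Hochberg over all genes tested), with pool as a block between classes and with side and labelled sex as additive terms otherwise. DESeq2 1.42.0 was an alternative. The SE given with edgeR values was derived as the absolute log2 difference divided by the square root of the test's F statistic. Fits were tested on simulated data. CPM are UMIs per 1000000 of the class in a pool, given as mean ± SD; a gene's level is not scaled for length, so levels are not compared between genes. The members and lists were chosen with earlier results of these data known. Of each list, up to 3 rises and 3 falls with a mean of at least 10 CPM in either group were named, and for each member the 3 genes of closest pattern; a gene that the rule named is not reported here. The pools combine 6 rats each, and p-values measure the spread between pools.

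In neurons, same-numbered left and right pools of 1 labelled sex correlated in their deviations from group means at r = -0.09 to 0.15, so the numbers were not taken to pair them; 2 of the 6 pairs hold ML1 or FL1.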

Additional observations from a re-analysis of the deposited data

Results flagged for a closer look

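Within the 6 pools of each side and of each labelled sex, the highest or lowest pool was set against the gap to its nearest neighbour, for 7 genes in 3 classes (84 groups). In 10 the pool stood apart by more than Dixon's 95% limit, and chance alone gives about 1 in 20 groups. Of the 10, 8 were in myelinating Schwann cells, the class with the fewest nuclei of the 3.

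In myelinating Schwann cells, FL1 had 44.7 CPM of Nxph1, while the remaining left pools held 11.4 to 21.8 CPM and the remaining female-labelled ones 15.3 to 22.8 CPM, so it stood apart in both groupings. FL1 was also low in Nrxn2 (29.8 CPM, rest of the left pools 49.7 to 61.2 CPM), and so was MR1 (46.4 CPM, rest of the male-labelled pools 57.0 to 61.2 CPM). Lrrtm3 reached 211 CPM in FL3 (rest of the female-labelled pools 84.0 to 127 CPM) and 156 CPM in ML3 (rest of the male-labelled pools 108 to 122 CPM). It was low in FR2, at 84.0 CPM (rest of the right pools 108 to 122 CPM). Nlgn1 was 921 CPM in FR1, against 574 to 698 CPM in the other right pools.

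In satellite glia, Nlgn1 was 1024 CPM in FR1, against 817 to 858 CPM in the other right pools, the same pool that was high for Nlgn1 in myelinating Schwann cells. Nlgn3 was 72.5 CPM in MR3, against 47.4 to 56.7 CPM in the other right pools. No pool of neurons stood apart for any of the 7 genes.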

How the results depend on the processing

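Of 726 alternative values for single members, 676 kept direction and side of the threshold, 20 lost a call, 16 gained one and 14 changed sign. All 540 alternative values of the list genes taken by the naming rule kept both. Between nodose-like and jugular-like neurons, 3 members were called at resolution 0.5 against 5. For labelled sex in neurons, 1 was called without the low-count filter; leaving out a pool gave 0 to 2 against 0. Nxph1 in neurons against satellite glia turned to -0.077 at resolution 0.5. Lrrtm3 in satellite glia against myelinating Schwann cells turned to 0.070 at resolution 2 and 0.48 with g0 alone, an alternative chosen after seeing the data. Nlgn2 in nodose-like against jugular-like neurons, -0.01 and never called, changed sign under DESeq2 (0.039), no TMM (0.030), no low-count filter (0.043), resolution 0.5 (0.034), no replicate block (0.0051), left pools only (0.12) and without ML1 and FL1 (0.024); leaving out 1 pool gave -0.089 to 0.073. The causes were not tested. Over all genes the counts moved with the setting: side in neurons called 16 genes, 0 to 54 under alternatives, labelled sex in neurons 5 (0 to 614), side in satellite glia 0 (0 to 10), labelled sex in satellite glia 14 (0 to 109), side in myelinating Schwann cells 4 (0 to 23), labelled sex in them 6 (0 to 25), and satellite glia against myelinating Schwann cells 5743 (3498 to 6958). A replicate block on the pool numbers, which are not stated to pair the pools, called 2 genes for side in neurons, 0 in satellite glia and 2 in myelinating Schwann cells. It called 0 members in each. Of 28 neighbouring pairs of classes 12 passed (12 to 14 under alternatives), and of 126 of subclusters 7 (5 to 10). Few UMIs limit Nlgn2, Nlgn3 and Nxph1 in glia.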

Other observations

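A cluster set aside because it carried markers of another class, n19, led by Th, Tyrp1 and Apoe, held Nxph1 at 225 ± 57.3 CPM over the 9 pools with at least 20 of its nuclei (307 nuclei; 121, 220 and 292 CPM at the lowest, median and highest). It entered no comparison. In the jugular-like subcluster n24, led by the cold-sensing channel gene Trpm8 and Cdh8 and present with enough nuclei in 3 pools, Nxph1 was 64.1 ± 46.4 CPM and Nrxn3 2856 ± 355 CPM, from 17 and 784 UMIs. Its Nxph1 value rests on few molecules, and its name is less certain, with 3 jugular and 3 nodose markers.

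Skeletal muscle nuclei, which came largely from FR2 (282 of 372), held Nlgn1 at 410 and 514 CPM and Nrxn3 at 415 and 546 CPM in the 2 pools with at least 20 such nuclei.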
